A study of Mus musculus with 6 samples.

Results

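The 10 genes described here encode proteins of the extracellular matrix that surrounds brain cells: the lecticans Bcan, Ncan, Vcan and Acan, the link proteins Hapln1 and Hapln4, the tenascins Tnc and Tnr, and Ptprz1 and Cspg5, both of which are membrane-bound chondroitin sulfate proteoglycans of the nervous system. They were taken by symbol, by a rule that uses no measured value but was written with earlier results of these data known, and all 10 were found among the 43383 rows of the expression table. Lecticans carry chondroitin sulfate chains, bind the long sugar hyaluronan at 1 end and tenascins at the other, and link proteins lock them onto hyaluronan. The resulting mesh fills the space around neurons and synapses and condenses into perineuronal nets around some interneurons, and astrocytes are a known source of several of its parts.

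The cells came from male Aldh1l1-eGFP mice, 4 weeks old, whose somatosensory cortex was cut into upper and deep layers and sorted for fluorescence. In these mice the promoter of Aldh1l1, an enzyme gene of astrocytes, drives green fluorescent protein (GFP), so other cells that use this promoter would have been sorted too. Upper-layer astrocytes (ULAs) came from layers II–IV and deep-layer astrocytes (DLAs) from layers V and VI, 3 libraries of each, and both groups carried the same transgene and no treatment is named. Each of 3 brains gave 1 ULA and 1 DLA library, and the comparison asks whether astrocytes of the upper and deep layers differ in gene expression. The dissection discarded the meninges, layer I, the corpus callosum and the tissue around the border of layers IV and V, so astrocytes of those places were left out.

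Levels are RPKM, reads per kilobase of mRNA scaled to the mapped reads of the library, which allows different genes to be set side by side. Sequencing depth was 24.4 to 26.7 M reads in ULAs and 19.7 to 29.6 M reads in DLAs. Differences are log2 fold changes of RPKM + 1, ULA minus DLA, from 1 limma model with brain and layer as terms, fitted to the 13999 rows with a mean of at least 1 RPKM, with Benjamini-Hochberg adjustment over those rows. The threshold was an adjusted p of 0.05. Among all tested rows 1.63% passed (228 rows), 0.714% with the higher level in ULAs (100 rows) and 0.914% with the higher level in DLAs (128 rows). This balance depends on the scaling, since with quantile normalization 138 rows passed toward ULAs and 103 toward DLAs, and at an unadjusted p under 0.05 the numbers were 1092 and 1085 in place of 790 and 1505.

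The libraries were checked for the cells that also make these proteins. Astrocyte markers (9 genes) summed to between 10649 and 11357 RPKM in ULAs and between 9727 and 10720.1 RPKM in DLAs, and 1 of 9 passed, Gfap, which was higher in DLAs (log2 fold change −0.93, adjusted p of 0.00556 by limma). Neuronal markers (9 genes) stayed at 7.22 to 7.59 RPKM in ULAs and 5.23 to 7.86 RPKM in DLAs, and those of interneurons that bear perineuronal nets (6 genes) at 1.17 to 1.57 and 1.86 to 2.28 RPKM. The precursor list (6 genes) summed to 85.4 to 96.8 RPKM in ULAs and 97.1 to 134 RPKM in DLAs, most of it Olig1, and 0 of its 2 tested genes passed. In this list Olig2 measured 5.18, 4.91 and 5.33 RPKM in ULAs and 19.06, 5.86 and 9.06 RPKM in DLAs without overlap (log2 fold change −0.86, adjusted p of 0.106 by limma), Sox10 was at 0.04 to 0.23 and 0.16 to 0.68 RPKM and lower in ULAs in 3 of 3 brains, and Cspg4 was at 0.39 to 0.92 and 0.18 to 0.43 RPKM and higher in ULAs in 3 of 3 brains. Pdgfra, the defining receptor of oligodendrocyte precursors, lay between 0.00 and 0.07 RPKM and Gpr17 between 0.00 and 0.03 RPKM. Markers of myelinating oligodendrocytes (8 genes) moved with the layer: 6 of 8 passed as higher in DLAs, and the list summed to 93.0, 89.1 and 184 RPKM in ULAs of brains 1 to 3 and to 181, 207 and 288 RPKM in DLAs. The ULA library of brain 3 thus stood apart from the other ULA libraries in this list. Microglial markers (6 genes) summed to 12.9 to 13.8 RPKM in ULAs and 8.58 to 11.7 RPKM in DLAs. Most of this was P2ry12, and each of the others stayed under 1 RPKM. Endothelial markers (5 genes) reached at most 1.57 RPKM. Pericyte and fibroblast markers (7 genes), mostly Pdgfrb, lay at 18.2 to 26.0 RPKM in ULAs and 16.2 to 23.5 RPKM in DLAs. Among them Rgs5 passed as higher in ULAs (log2 fold change 0.77, adjusted p of 0.0455 by limma). The part of these other cells in the differences below was not tested.

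**Figure D1:**
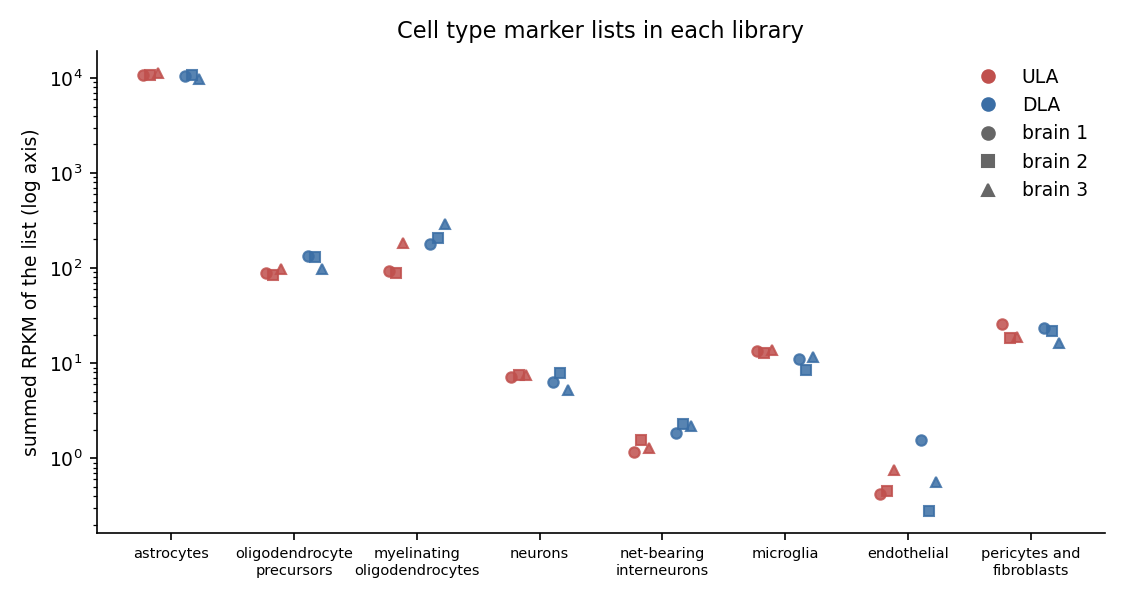
Summed RPKM (log axis) of 8 cell type marker lists in each of the 6 libraries, with ULAs in red, DLAs in blue and the brain given by the shape of the point. Astrocyte markers lay between 9727 and 11357 RPKM, while myelinating oligodendrocyte markers ran from 89.1 to 288 RPKM, with the ULA library of brain 3 at 184.

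The 10 genes covered a wide range of levels in sorted astrocytes. Bcan was by far the most abundant, followed by the membrane proteoglycans Cspg5 and Ptprz1, then by Hapln1 and Ncan, while the tenascins were close to 2 RPKM, Hapln4 and Vcan were under 1 RPKM and Acan was listed at 0. Over all 6 libraries the means were 1060.3 RPKM for Bcan, 228 for Cspg5, 209 for Ptprz1, 56.8 for Hapln1, 43.0 for Ncan, 1.75 for Tnc, 1.71 for Tnr, 0.580 for Hapln4 and 0.435 for Vcan. The neighbours Cspg5 and Ptprz1, Hapln1 and Ncan, Tnc and Tnr, and Hapln4 and Vcan overlapped in their ranges, as did Tnc and Hapln4 through the low Tnc value of 1 ULA library. The steps from Bcan to Cspg5, from Ptprz1 to Hapln1 and from Ncan to the tenascins exceeded the spread of the libraries.

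**Figure D2:**
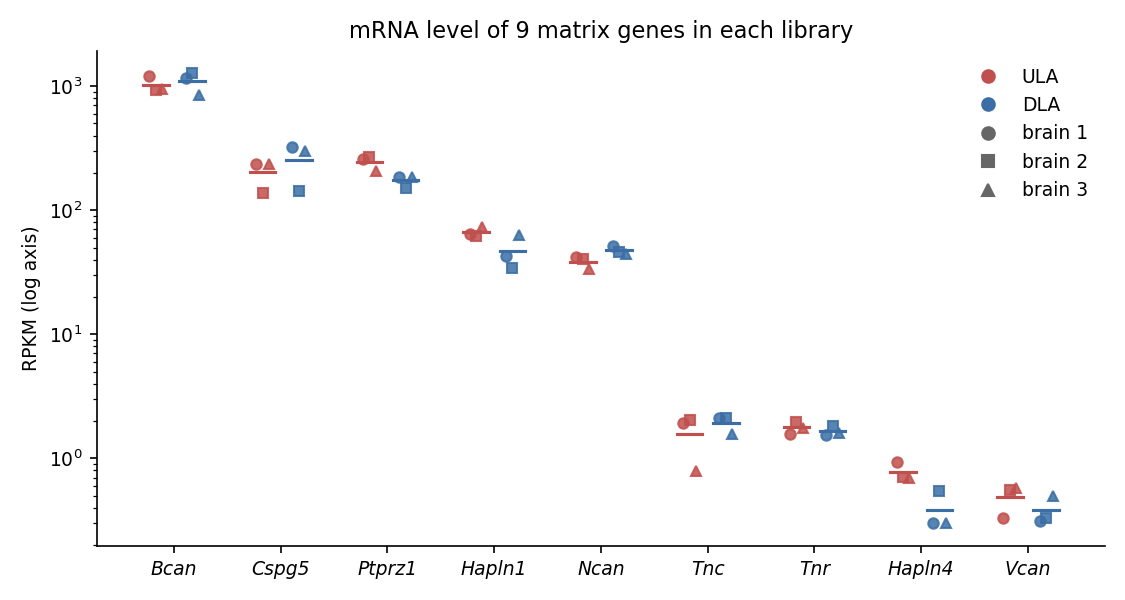
RPKM (log axis) of the 9 genes with values above 0 in each library, with ULAs in red, DLAs in blue, the brain given by the shape of the point and bars at the group means. Bcan lay between 856.39 and 1270.66 RPKM and Hapln4 and Vcan under 1 RPKM, and the libraries of the layers were apart for Ptprz1, Ncan and Hapln4 but mixed for the others.

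No gene of the group passed the test between the layers. Of the 10 genes, 7 had a mean of at least 1 RPKM and were tested, and 0 of 7 passed in either direction by limma, against 1.63% of all rows, so that the count of 0 is no result about these genes. At an unadjusted p under 0.05, where 16.4% of all rows lay, 2 of 7 were higher in ULAs (Hapln1 and Ptprz1), against 5.64% of all rows, and 2 of 7 were higher in DLAs (Ncan and Cspg5), against 10.8%. The groups did not overlap for 2 of the 7 (Ptprz1 and Ncan), against 15.9% of all rows. Within brains, 6 of the 7 pointed 1 way in all 3 brains, against 38.4% of all rows. The 7 log2 fold changes had a median of −0.08 and ran from −0.29 to 0.54, beside a median of −0.03 over all rows, of which the 10th and 90th percentiles were −0.29 and 0.24. In a sorted pool, fewer cells of a type and less RNA per cell cannot be told apart.

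**Figure D3:**
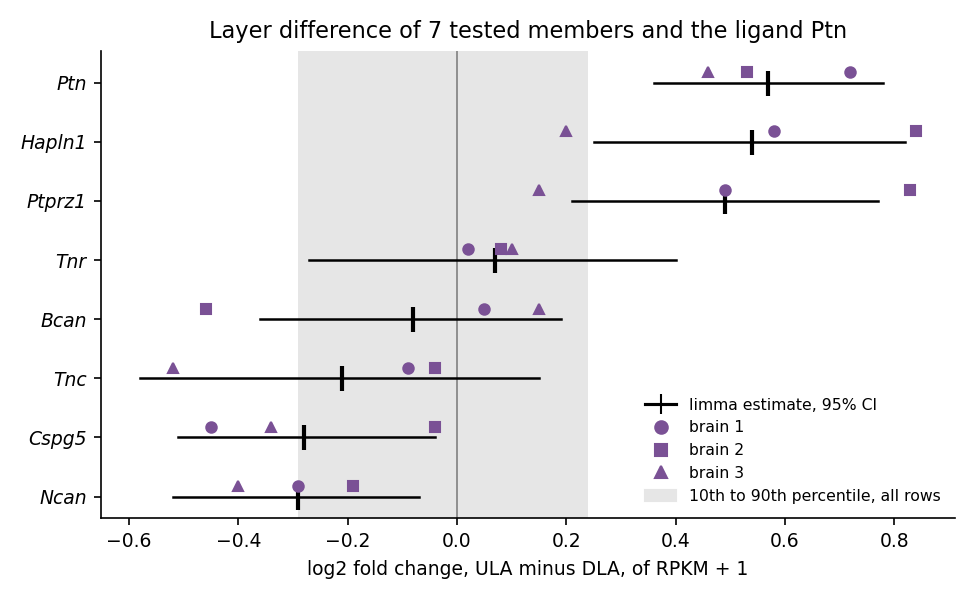
Log2 fold change of RPKM + 1 (ULA minus DLA) of the 7 tested genes and of Ptn, a ligand of Ptprz1, with the limma estimate and 95% confidence interval in black, the ratio in each brain as purple points, and the 10th to 90th percentile of all rows in grey. Hapln1 and Ptprz1 lay above the grey band with brain 2 farthest right and brain 3 farthest left, while Ncan and Cspg5 lay at its lower edge.

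Among the lecticans, Bcan (brevican, a short lectican of the adult brain) did not separate the layers. Its level was 1200.76, 924.61 and 953.05 RPKM in ULAs of brains 1 to 3 and 1156.27, 1270.66 and 856.39 RPKM in DLAs. The groups overlapped, and Bcan was higher in ULAs in brains 1 and 3 and higher in DLAs in brain 2. The log2 fold change was −0.08 (SE 0.12, 95% CI −0.36 to 0.19), with an adjusted p of 0.786 by limma, and without brain 2 it turned to 0.10. With roughly 90206 to 117012 reads per library, Bcan ranked 42 of 13999 rows by mean RPKM. In the mouse build mm9 its row spans 87791453 to 87804278 on the minus strand of chromosome 3, with 14 exons and an mRNA of 3808 bases.

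Ncan (neurocan, a lectican known for its abundance in the young brain) was lower in ULAs than in DLAs in every brain, without passing the test. It measured 41.98, 40.06 and 33.63 RPKM in ULAs and 51.54, 45.98 and 44.68 RPKM in DLAs. The groups did not overlap, as held for 9.27% of all rows in this direction. Means were 38.6 ± 4.37 and 47.4 ± 3.64 RPKM (SD, n = 3), the ULA level was 0.815, 0.871 and 0.753 of the DLA level in the same brain, and the log2 fold change was −0.29 (SE 0.10, 95% CI −0.52 to −0.07) with an adjusted p of 0.194 by limma. The gene lies on the minus strand of chromosome 8 at 72616984 to 72644743 (mm9), in 15 exons.

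Vcan (versican) and Acan (aggrecan, the core proteoglycan of perineuronal nets) were at the bottom of the range. Vcan measured 0.33, 0.56 and 0.58 RPKM in ULAs and 0.31, 0.33 and 0.50 RPKM in DLAs, from about 95 to 227 reads per library on its mRNA of 14689 bases. It was higher in ULAs in 3 of 3 brains, but the groups overlapped, and with no filter on low values its log2 fold change was 0.11 (95% CI −0.10 to 0.32, adjusted p of 0.676 by limma). Acan was listed at 0.00 in all 6 libraries, a value that 1 read would also give on its mRNA of 7355 bases at these depths. Vcan lies on chromosome 13 at 89794915 to 89882117 and Acan on chromosome 7 at 86198369 to 86259985 (mm9).

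Since RPKM is scaled to length, the lecticans can be compared as shares of their sum. Bcan made up 96.3 ± 0.448% (SD, n = 3) of the summed lectican RPKM in ULAs and 95.7 ± 0.748% in DLAs, so nearly all lectican mRNA in both groups was Bcan. The difference was 0.58 ± 1.15 percentage points (mean ± SD of 3 brains, exact 2-sided paired permutation p = 0.5). Ncan supplied most of the remainder, with 3.64 ± 0.438% in ULAs and 4.24 ± 0.733% in DLAs (SD, n = 3, exact 2-sided paired permutation p = 0.5). With 3 brains this test cannot give a p under 0.25.

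Of the link proteins, Hapln1 fastens lecticans to hyaluronan and is needed for compact perineuronal nets. Hapln1 had the largest log2 fold change of the 7 tested genes. It measured 64.88, 62.10 and 72.99 RPKM in ULAs and 43.00, 34.28 and 63.60 RPKM in DLAs. ULAs were higher within every brain, but the groups overlapped, since the DLA library of brain 3 lay above the ULA library of brain 2. Means were 66.7 ± 5.66 and 47.0 ± 15.1 RPKM (SD, n = 3), with a coefficient of variation of 8.49% in ULAs and 32.1% in DLAs. The ratio of ULA to DLA was 1.51, 1.81 and 1.15 in brains 1 to 3, and the log2 fold change was 0.54 (SE 0.13, 95% CI 0.25 to 0.82) with an adjusted p of 0.0762 by limma. It passed without brain 3 (0.71, adjusted p of 0.000220 by limma, with 7.95% of all rows passing) and with only rows of at least 5 RPKM (adjusted p of 0.0375, with 2.69% of rows passing). Brain 3 had the highest Hapln1 level in both layers, and the smaller ratio came with its high DLA value of 63.60 RPKM. The oligodendrocyte marker sum was also highest in brain 3 in both layers, at 184 RPKM in ULAs and 288 RPKM in DLAs. The part of these cells in the smaller ratio was not tested. Hapln1 lies on the plus strand of chromosome 13 at 89680241 to 89751437 (mm9) in 5 exons, and between 3406 and 9851 reads per library fell on it.

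Hapln4 (a link protein made mainly by neurons, where it sits in nets and at inhibitory synapses) was near the limit of detection. It measured 0.93, 0.71 and 0.69 RPKM in ULAs and 0.30, 0.55 and 0.30 RPKM in DLAs, from 29 to 81 reads per library. The groups did not overlap, as held in this direction for 6.59% of the tested rows, to which Hapln4 did not belong. In the fit with no filter the log2 fold change was 0.36 (SE 0.12, 95% CI 0.05 to 0.68) with an adjusted p of 0.465 by limma. The added 1 RPKM shrinks the change of such a low row. Its plain ratio of ULA to DLA means was 2.03, against 1.42 for Hapln1. In the same libraries the neuronal marker sum, most of it Snap25, overlapped between the layers. Among the 9 markers, 2 were higher in ULAs without overlap. These were Rbfox3 (0.25 to 0.40 against 0.07 to 0.23 RPKM, 9 to 44 reads) and Tubb3 (0.20 to 0.42 against 0.08 to 0.17 RPKM, 3 to 19 reads). Slc17a7 (0.30 to 0.49 against 0.57 to 0.61 RPKM, 23 to 53 reads) was lower without overlap. All other neuronal markers overlapped. The marker sums of net-bearing interneurons, mostly Kcnc1 and Erbb4, were lower in ULAs, at up to 1.57 RPKM against at least 1.86 RPKM in DLAs. Each gene of that list overlapped on its own. The part of neurons in the Hapln4 values was not tested. The row spans 72607428 to 72614761 on the plus strand of chromosome 8 (mm9).

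Link protein mRNA was scarce beside lectican mRNA. For every 100 RPKM of lecticans there were 5.29, 6.51 and 7.46 RPKM of link proteins in ULAs and 3.58, 2.64 and 7.09 RPKM in DLAs. ULAs were higher in 3 of 3 brains, clearly so in brain 2 and barely in brain 3. On the log2 scale the ratio was −3.98 ± 0.25 in ULAs and −4.62 ± 0.73 in DLAs, a difference of 0.65 ± 0.62 (SD, n = 3 brains) with an exact 2-sided paired permutation p of 0.25, the smallest that 3 brains allow. Without brain 2 the difference was 0.32.

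Each lectican gene has a link protein gene beside it, with 0 RefSeq mRNA rows of the table between them (mm9), and the levels within a pair lay far apart. Ncan and Hapln4 lie 2222 bases apart on chromosome 8 with 43.0 and 0.580 RPKM over all libraries, so Ncan was 74.1-fold higher. The order was turned around on chromosome 13, where Hapln1 and Vcan lie 43477 bases apart and Hapln1, with 56.8 against 0.435 RPKM, was 131-fold higher. Bcan, at 1060.3 RPKM, lies 21393 bases from Hapln2, at 0.278 RPKM. Acan, listed at 0, lies 1927 bases from Hapln3, at 2.24 RPKM.

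The tenascins were low in both layers. Tnc (tenascin-C, a large matrix glycoprotein of developing and injured brain) measured 1.91, 2.04 and 0.79 RPKM in ULAs and 2.10, 2.12 and 1.56 RPKM in DLAs. It was lower in ULAs in 3 of 3 brains with overlapping groups, the ULA library of brain 3 being the low one. Its log2 fold change was −0.21 (SE 0.16, 95% CI −0.58 to 0.15, adjusted p of 0.550 by limma). This value was −0.06 without brain 3 and −0.36 with a pseudocount of 0.1. On chromosome 4 at 63620819 to 63708049 (mm9), exons of Tnc share 176 bases with another row on the opposite strand, which measured 0.93 to 2.64 RPKM, and because the library kit does not mark strand these reads cannot be told apart. Tnr (tenascin-R, a ligand of the lecticans made mostly by oligodendrocyte lineage cells and some neurons) measured 1.58, 1.98 and 1.77 RPKM in ULAs and 1.54, 1.81 and 1.59 RPKM in DLAs. Tnr was higher in ULAs in 3 of 3 brains, with overlapping groups and a log2 fold change of 0.07 (SE 0.15, 95% CI −0.27 to 0.40, adjusted p of 0.861 by limma) that turned to −0.01 with a correction for mRNA length. Tnr lies on chromosome 1 at 161453900 to 161855053 (mm9), in 23 exons.

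Ptprz1 and Cspg5, which span the membrane, pointed opposite ways in all 3 brains. Ptprz1 (a receptor tyrosine phosphatase whose outer part carries chondroitin sulfate and binds tenascins, contactins and pleiotrophin) measured 260.30, 268.73 and 206.33 RPKM in ULAs and 184.77, 151.20 and 185.23 RPKM in DLAs. All ULA libraries lay above all DLA libraries, as held for 6.59% of all rows. Means were 245 ± 33.9 and 174 ± 19.5 RPKM (SD, n = 3), the ratios in brains 1 to 3 were 1.41, 1.78 and 1.11, and the log2 fold change was 0.49 (SE 0.12, 95% CI 0.21 to 0.77) with an adjusted p of 0.0932 by limma. As with Hapln1, brain 2 had the largest ratio and brain 3 the smallest, and without brain 3 Ptprz1 passed (0.66, adjusted p of 0.000279 by limma). That fit left out the brain with the smallest ratio, and 7.95% of all rows passed in it. The oligodendrocyte marker sums of brain 3 apply here as well, and their part was not tested. The gene spans 22825502 to 23002916 on the plus strand of chromosome 6 (mm9) with 30 exons, and 23977 to 55547 reads per library fell on it.

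Cspg5 (neuroglycan C, a brain proteoglycan with an epidermal growth factor-like module) measured 235.51, 137.55 and 235.05 RPKM in ULAs and 321.14, 141.85 and 298.48 RPKM in DLAs. Brain 2 was low in both layers, which left coefficients of variation of 27.8% in ULAs and 38.5% in DLAs and overlapping groups. Within brains ULAs were lower in 3 of 3, at 0.733, 0.970 and 0.787 of the DLA level, so that brain 2 hardly differed between its layers. The log2 fold change was −0.28 (SE 0.10, 95% CI −0.51 to −0.04) with an adjusted p of 0.230 by limma. In DLAs Cspg5 averaged 254 ± 97.6 RPKM against 174 ± 19.5 RPKM for Ptprz1, and in ULAs 203 ± 56.4 against 245 ± 33.9 RPKM (SD, n = 3). The order of the means did not hold in every library. Cspg5 was below Ptprz1 in DLAs of brain 2 (141.85 against 151.20 RPKM) and above it in ULAs of brain 3 (235.05 against 206.33 RPKM). Cspg5 lies on chromosome 9 at 110146287 to 110165080 (mm9), in 5 exons.

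Among the 7 tested genes, Hapln1 and Ptprz1 had the largest log2 fold changes toward ULAs, and Ncan pointed the other way. The sequences just upstream of Hapln1, Ptprz1 and Ncan are shown so that the start regions can be compared. They are the 250 bases before the RefSeq transcript start in build GRCm38.p6, a later build than that of the table, at chr13:89540386-89540635 on the plus strand for Hapln1, chr6:22875252-22875501 on the plus strand for Ptprz1 and chr8:70120845-70121094 on the minus strand for Ncan. Capitals mark matches, on either strand, to any of 4 short motifs: a core promoter element spelled TATAAA, a site of the factor NF-Y spelled CCAAT, a site of Sp1 family factors spelled GGGCGG and a site of TCF/LEF factors spelled CTTTGA.
Hapln1: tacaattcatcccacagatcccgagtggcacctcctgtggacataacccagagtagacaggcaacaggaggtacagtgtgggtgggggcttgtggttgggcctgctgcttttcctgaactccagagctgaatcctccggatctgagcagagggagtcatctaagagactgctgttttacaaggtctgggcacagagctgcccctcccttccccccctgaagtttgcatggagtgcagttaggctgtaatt
Ptprz1: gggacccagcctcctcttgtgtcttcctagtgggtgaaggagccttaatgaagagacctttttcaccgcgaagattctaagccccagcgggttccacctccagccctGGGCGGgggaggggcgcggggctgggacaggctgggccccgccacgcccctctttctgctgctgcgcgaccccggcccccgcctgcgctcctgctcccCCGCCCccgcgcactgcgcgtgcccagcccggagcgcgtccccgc
Ncan: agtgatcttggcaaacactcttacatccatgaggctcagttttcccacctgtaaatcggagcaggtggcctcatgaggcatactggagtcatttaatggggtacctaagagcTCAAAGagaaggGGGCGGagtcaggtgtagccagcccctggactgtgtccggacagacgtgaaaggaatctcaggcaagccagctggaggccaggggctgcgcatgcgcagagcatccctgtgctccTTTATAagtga
Hapln1 and Ptprz1 had no shared match: the Hapln1 window held 0 matches at a GC content of 54.4%, and the Ptprz1 window held 2 Sp1 matches at a GC content of 71.6%. The Ncan window, with 54.4% GC, held 1 core element, 1 Sp1 match and 1 TCF/LEF match. Among 32851 such windows, with a median GC content of 52.4%, the core element was found in 12.4%, the NF-Y letters in 33.8%, the Sp1 letters in 32.7% and the TCF/LEF letters in 13.8%. Windows matched 8 of the 10 genes by symbol, and in none of the 3 windows shown did motif matches overlap. A match describes letters only and was not tested for binding.

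Around these proteins stand the enzymes and partners that build, bind and cut the same matrix. Of 63 such genes in 5 lists, all had a row and 36 were tested, and 2 passed, both higher in ULAs, against 0.714% of all rows in that direction and 1.63% in either. These were Ptn and Chst7. The 36 log2 fold changes had a median of 0.04, beside −0.03 over all rows, and at an unadjusted p under 0.05 there were 8 higher in ULAs (5.64% of all rows) and 4 higher in DLAs (10.8% of all rows).

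**Figure D4:**
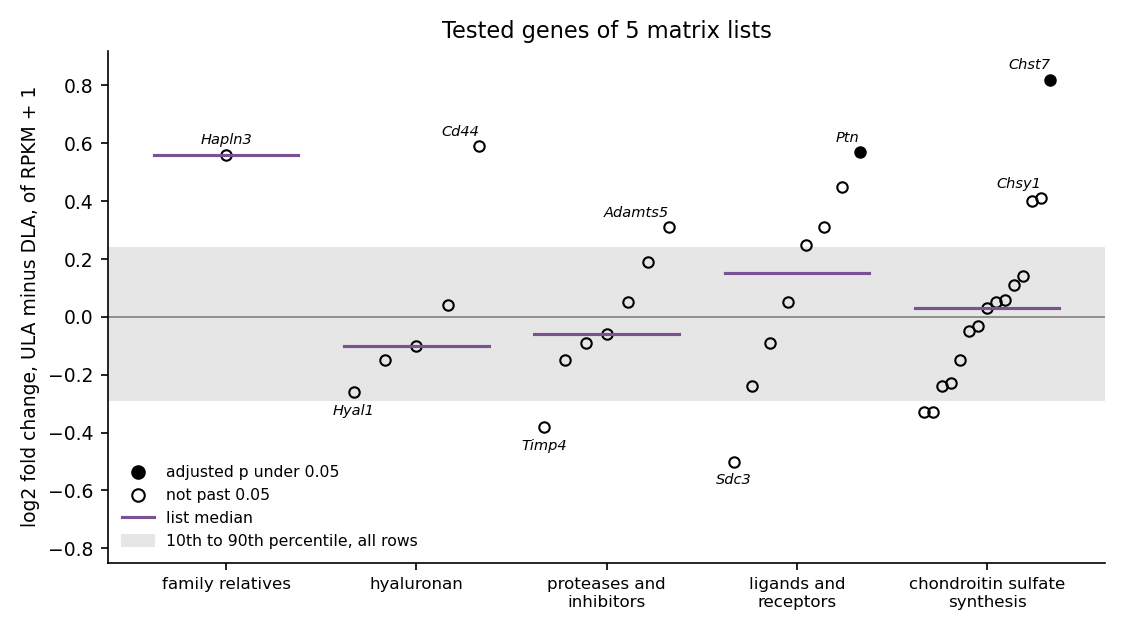
Log2 fold change of RPKM + 1 (ULA minus DLA) of the 36 tested genes in 5 lists around the matrix proteins, filled where the adjusted p was under 0.05, with list medians in purple and the 10th to 90th percentile of all rows in grey. Ptn at 0.57 and Chst7 at 0.82 are the filled points, and most other genes lay inside the grey band.

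Ptn (pleiotrophin, a secreted growth factor that binds the chondroitin sulfate of Ptprz1) was higher in ULAs. It measured 870.89, 809.21 and 872.97 RPKM in ULAs and 527.51, 561.95 and 634.38 RPKM in DLAs. The groups did not overlap and ULAs were higher in 3 of 3 brains. Means were 851 ± 36.2 and 575 ± 54.5 RPKM (SD, n = 3) and the log2 fold change was 0.57 (SE 0.10, 95% CI 0.36 to 0.78) with an adjusted p of 0.0163 by limma, which without brain 1 became 0.327, and it passed under 7 of the 11 other settings. Ptn mRNA stood at 3.35, 3.01 and 4.23 times the Ptprz1 level in ULAs and at 2.85, 3.72 and 3.42 times in DLAs, so the ratio of ligand to receptor overlapped between the layers (difference 0.20 ± 0.80, exact 2-sided paired permutation p = 0.75, n = 3 brains). Among the 8 tested genes of the ligand and receptor list, 1 passed and the median was 0.15. Sdc3 (syndecan-3, a heparan sulfate proteoglycan that also binds pleiotrophin) averaged 2.22 ± 0.382 RPKM (SD, n = 3) in ULAs and 3.93 ± 2.45 RPKM in DLAs, with a log2 fold change of −0.50 and an adjusted p of 0.261 by limma.

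Of 21 genes that build chondroitin sulfate chains, 15 were tested and 1 passed, with a list median of 0.03. This was Chst7 (a sulfotransferase that adds sulfate to chondroitin), with 14.60, 13.31 and 11.15 RPKM in ULAs and 7.07, 7.80 and 5.87 RPKM in DLAs. Every ULA library lay above every DLA library, and the log2 fold change was 0.82 (SE 0.12, 95% CI 0.56 to 1.09) with an adjusted p of 0.00908 by limma, past the threshold also under 9 of the 11 other settings. Chst7 belongs to the upper-layer genes that the study picked from these same libraries, so this is not independent evidence of its direction. Chsy1 (a chondroitin synthase that extends the chain) averaged 4.68 ± 0.140 RPKM (SD, n = 3) in ULAs and 3.31 ± 0.633 RPKM in DLAs, with a log2 fold change of 0.41 and an adjusted p of 0.196 by limma.

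In the lists of hyaluronan enzymes and receptors, of lectican-cutting proteases with their inhibitors and of close relatives, 0 of 13 tested genes passed by limma, against 1.63% of all rows, and at an unadjusted p under 0.05 there were 2 higher in ULAs and 2 higher in DLAs, against 5.64% and 10.8% of all rows. Cd44 (a cell surface receptor of hyaluronan) averaged 6.42 ± 0.806 RPKM in ULAs and 3.95 ± 0.868 RPKM in DLAs, with a log2 fold change of 0.59 (SE 0.16) and an adjusted p of 0.115 by limma. Hyal1 (a hyaluronidase) averaged 39.4 ± 1.11 against 47.4 ± 2.30 RPKM, with −0.26 and an adjusted p of 0.240 by limma. The hyaluronan synthases were near 0, with Has1 between 0.06 and 1.39 RPKM, Has2 between 0.00 and 0.06 RPKM and Has3 between 0.00 and 0.03 RPKM. Timp4 (an inhibitor of metalloproteinases) averaged 334 ± 39.9 RPKM in ULAs and 433 ± 13.5 RPKM in DLAs, with −0.38 (SE 0.10) and an adjusted p of 0.0925 by limma. Adamts5 (an aggrecan-cutting protease) averaged 1.46 ± 0.215 and 0.997 ± 0.248 RPKM, with 0.31 and an adjusted p of 0.373 by limma. Hapln3, a relative of the link proteins, averaged 2.87 ± 0.143 RPKM (SD, n = 3) in ULAs and 1.62 ± 0.123 RPKM in DLAs, and its log2 fold change of 0.56 had an adjusted p of 0.102 by limma.

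The 4 genes with an unadjusted p under 0.05 kept their direction under all 11 other settings tried, but most of these could not change it. The brain term, the filters and the intensity trend leave the log2 fold change as it is. Each gene pointed 1 way in all 3 brains, so neither leaving out 1 brain nor the smaller pseudocount could reverse it. A reversal was possible only with quantile normalization, median centring and the mRNA length correction. Hapln1 ran from 0.39 to 0.71 and passed under 2 of the 11, and Ptprz1 ran from 0.32 to 0.66 and passed under 1. Ncan and Cspg5 both ran from −0.39 to −0.19 and passed under none of the 11, the lowest adjusted p by limma being 0.0597 for Cspg5 without brain 2. In the whole table the smallest absolute value among the rows past the threshold was 0.46, and 31 of the 228 were under 0.6.

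**Figure D5:**
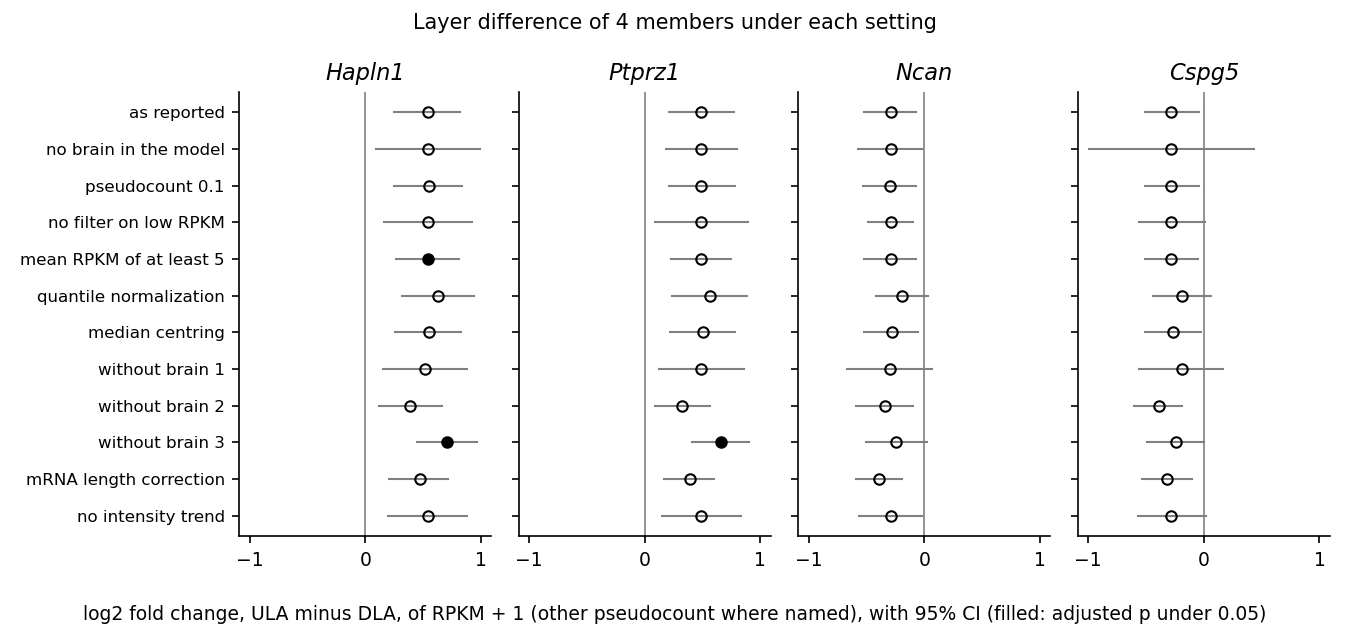
Log2 fold change of RPKM + 1 (ULA minus DLA) of Hapln1, Ptprz1, Ncan and Cspg5 under each setting, with 95% confidence intervals and filled points where the adjusted p was under 0.05. All points of Hapln1 and Ptprz1 lay right of 0 and all of Ncan and Cspg5 left of 0, and 3 points are filled.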

How the data were processed

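The deposited table holds RPKM values that the authors computed per row and cut to 2 decimals. The submitters' notes name bcl2fastq 1.8.4, CASAVA 1.8.2 and mouse build mm9; the aligner and the counting program are not given in the sources used here. Libraries were made from total RNA with a SMART-Seq v4 kit and sequenced as single 36-base reads. Depth was read from the steps of the values in short rows, where 99.8 to 100.0% came out as whole reads (next best step at most 82.2%), and read numbers per gene are approximations from it that cover counting error only. RPKM are not counts, so log2(RPKM + 1) of rows with a mean of at least 1 RPKM was fitted with the R package limma (3.58.1, R 4.3.3; eBayes with the trend on). The model held a term for the brain and 1 for the layer, and 2-sided p-values were adjusted by Benjamini-Hochberg. Deviations from the layer means correlated across genes between libraries of 1 replicate number (0.42, 0.33 and 0.34) and not between numbers (−0.20 to −0.16), and the study names 3 brains, so the number was taken as the brain. Shares and ratios were compared by exact sign-flip permutation over 3 brains. The fit was tested on simulated data. Alternatives were no brain term, a pseudocount of 0.1, no filter, a mean of at least 5 RPKM, quantile normalization, median centring, each brain left out, a loess correction for mRNA length (span 0.5) and no intensity trend. Tables were handled with pandas 2.3.3 and numpy 2.4.6 in Python 3.11.15 and figures drawn with matplotlib 3.10.9. All 10 genes are named, and from the pathway lists those past the threshold and the 2 with the largest absolute log2 fold change in each; the hyaluronan synthases and Hapln2 were added after their values were seen. The genes and lists were chosen with earlier results of these data known.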

Additional observations from a re-analysis of the deposited data

How the results depend on the processing

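None of the 10 genes passed as reported or under 9 of the 11 other settings, with 2 to 4 of them at an unadjusted p under 0.05 by limma. Hapln1 passed with a mean RPKM of at least 5, a count of 1, and leaving out each brain in turn gave 0 to 2 passing genes, the 2 being Hapln1 and Ptprz1 without brain 3. Without the replicate block, the brain term, the log2 fold changes stayed the same, as they must with each brain in both layers. Only the errors could change. Hapln1 then had an adjusted p of 0.433 and Ptprz1 of 0.308 by limma. The rows higher in ULAs went from 100 to 23 and those higher in DLAs from 128 to 18. The matrix lists went from 2 to 0 passing genes (10 at an unadjusted p under 0.05). Ptn (0.57, adjusted p 0.0986 by limma) and Chst7 (0.82, adjusted p 0.0856 by limma) no longer passed. With no filter on low values 0 rows passed in either direction by limma (unadjusted p under 0.05: 1124 with the higher level in ULAs, 1675 with the higher level in DLAs), and 0 genes of the matrix lists (11 at an unadjusted p under 0.05). Without the intensity trend 65 and 79 rows passed and 1 gene of the matrix lists, Chst7, and with the mRNA length correction 76 rows were higher in DLAs. The ratio of ULA to DLA went with mRNA length in every brain (Spearman rho across genes of 0.21, 0.37 and 0.10, a description, as genes are not independent). Leaving out each brain gave 104 to 426 rows higher in ULAs, 126 to 687 higher in DLAs and 1 to 5 genes of the matrix lists, the highest values all without brain 3. Bcan ran from −0.20 to 0.10 when each brain was left out, positive without brain 2, and Tnr turned to −0.01 with the mRNA length correction. The shares of Bcan and Ncan and the ratio of link proteins to lecticans kept their sign without each brain and with reads per mRNA in place of RPKM, the Bcan share from 0.10 to 1.22 and the Ncan share from −1.22 to −0.12 percentage points, and the log2 ratio of link proteins from 0.32 without brain 2 to 0.93 without brain 3. The link protein ratio was higher in ULAs in all 3 brains, so leaving out 1 brain could not turn its sign. Quantile normalization gave 138 rows higher in ULAs and 103 higher in DLAs. The cause of these shifts was not tested. Values of Hapln4, Vcan and the tenascins rest on few reads, and with 3 brains no row with an absolute log2 fold change under 0.46 passed.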
